A study of Mus musculus with 12 samples.

Results

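The cell cycle genes described here are 42 transcripts of dividing cells, 18 of the S phase and 24 of the G2 phase and mitosis (G2/M), chosen by gene symbol out of the 27998 genes counted in every cell. All 42 were found in the count tables under their own symbol and all were detected, from Bub1 with 392 UMIs to Pcna with 7459. A UMI (unique molecular identifier) is a random tag that lets each captured RNA molecule be counted once. They were followed across the cell types of the arthritic mouse joint and across 12 single-cell RNA sequencing libraries. The cells came from the hind limb joints of male C57BL/6 wild-type mice of 8 to 10 weeks in serum transfer-induced arthritis (STIA), in which 100 µl of serum from arthritic K/BxN (KRN) mice is injected intravenously and the swelling later subsides. The groups were rest (day 0, no serum), peak (days 7 to 9 after serum), resolving (day 15) and resolved (day 22), with 3 libraries per label, each made from the joints of 3 animals pooled after collagenase digestion. Cells that lacked CD45, which nearly all leukocytes carry, had been sorted from the digest and captured with the 10x Genomics 3′ kit. Pooling means that n counts pools and not animals.

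After the limits on genes and UMIs per cell, 20060 of 21042 deposited cells were kept, 1227 to 2747 per library, with median depths of 5231.5 to 5562 UMIs per cell and between 1988 and 16741 UMIs of the cell cycle genes per library. The near equality of these medians before any scaling here means that depth may have been levelled before deposition, which the sources used here do not state. The barcodes of each library end in a number from 1 to 12, and no barcode was shared between libraries. Over 11728 genes, the library most like each of the 12 carried a neighbouring number of the same run of 3 (1 to 3, 4 to 6, 7 to 9 or 10 to 12) for 12 of 12, and never (0 of 12) the same stage label. What the number stands for is not stated in the sources used here. The suffixes run through rest, peak, resolving and resolved in turn, whereas the libraries are alike in runs of 3, and whether labels and libraries were matched correctly at deposition was not tested. The comparisons by label, and their lack of calls, hold only if they were. Results are therefore given by label and by run. Suffixes 1 to 3 are the libraries labelled rest 1, peak 1 and resolving 1, and suffixes 4 to 6 those labelled resolved 1, rest 2 and peak 2. Suffixes 7 to 9 are resolving 2, resolved 2 and rest 3, and suffixes 10 to 12 are peak 3, resolving 3 and resolved 3. The runs were recognised from likeness over all genes, so a p-value between runs says that these libraries differ and not which condition they hold.

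A cell that divides first copies its DNA in the S phase and then separates the copies in mitosis. In the classical account, E2F factors switch on the S-phase genes once cyclin D and cyclin E kinases have inactivated the retinoblastoma proteins, and the MuvB complex, with B-MYB and FOXM1, switches on the G2/M genes through CHR and CCAAT elements of their promoters. The S members include the cyclins of S-phase entry (Ccne1, Ccne2), the licensing factors that prepare replication origins (Cdc6, Cdt1), the helicase that unwinds DNA (Mcm2 to Mcm7, Gins2), proteins of the replication fork (Pcna, Fen1, Uhrf1) and enzymes that supply nucleotides (Tyms, Rrm1, Rrm2, Tk1). The G2/M members include the mitotic kinases and their cyclins, the kinetochore and spindle proteins, and the ubiquitin machinery of mitotic exit. Synovial fibroblasts form the lining and the deeper sublining layer of the joint membrane, and growth of this membrane is a hallmark of arthritis.

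The promoters of 4 members are shown because they carry these elements in different combinations. Cdk1 and Ccnb2 are G2/M genes with wide changes between libraries, and Tk1 and Mcm6 are S genes with a wide and a narrow change. Each stretch is the 150 bases before the first annotated start (RefSeq and GENCODE M21), 5′ to 3′ in the direction of the gene, from RefSeq's sequence of GRCm38.p6. Capitals mark E2F-type words (TTTCCCGC, TTTGGCGC, TTTCGCGC or TTTGCCGC), CHR words (TTTGAA or TTTAAA) and CCAAT, each on either strand, and overlapping words run together.
Cdk1, chr10:69352939-69353088, minus strand: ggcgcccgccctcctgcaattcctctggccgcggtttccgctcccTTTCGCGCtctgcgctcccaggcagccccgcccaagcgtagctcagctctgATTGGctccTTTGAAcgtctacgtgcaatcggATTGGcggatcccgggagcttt
Ccnb2, chr9:70421555-70421704, minus strand: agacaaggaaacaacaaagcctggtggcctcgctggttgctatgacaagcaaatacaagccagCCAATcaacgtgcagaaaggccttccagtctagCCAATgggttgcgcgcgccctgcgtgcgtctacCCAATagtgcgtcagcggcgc
Tk1, chr11:117826093-117826242, minus strand: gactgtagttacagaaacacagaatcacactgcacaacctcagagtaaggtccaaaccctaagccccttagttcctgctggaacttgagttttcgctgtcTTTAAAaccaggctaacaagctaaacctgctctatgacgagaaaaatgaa
Mcm6, chr1:128359706-128359855, minus strand: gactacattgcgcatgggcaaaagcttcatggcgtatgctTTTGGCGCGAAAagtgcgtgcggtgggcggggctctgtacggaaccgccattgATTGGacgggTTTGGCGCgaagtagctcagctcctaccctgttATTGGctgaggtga
In these stretches Cdk1 had 1 E2F word, 1 CHR word and 2 CCAAT words, Ccnb2 had 3 CCAAT words, Tk1 had 1 CHR word, and Mcm6 had 3 E2F words and 2 CCAAT words. The length of the stretch matters. Within the 250 bases before the RefSeq start, Ccnb2 also had 1 CHR word, and Cdk1 had 2 CHR and 3 CCAAT words. RefSeq listed 40 promoters for 36 of the 42 members. Within the 250 bases before the start, an E2F word stood in 5 of 18 promoters of S members and in 1 of 22 of G2/M members, against 1.86% of all 32851 mouse promoters. A CHR word stood in 5 of 18 and 13 of 22 (25.2% of all), and CCAAT in 11 of 18 and 19 of 22 (33.85% of all). At least 2 CCAAT words were held by 6 of 18 and 12 of 22 (10.1% of all). A match is a match of letters and was not tested for binding. The members lie on 16 chromosomes, so they do not form a cluster in the genome. Of the 42, Cdt1 overlaps another counted gene (Gm20388) on its own strand, so its count is uncertain.

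Fibroblasts, the most numerous cells, held most of the cells with G2/M transcripts. Clusters made without the cell cycle genes were named from markers, and 12496 cells in fibroblast clusters (Pdgfra in 52.8% of cells, Dcn in 99.8%) were set beside 1873 tenocytes (Tnmd in 63.6%), 1771 vascular endothelial cells (Pecam1 in 93.8%), 1422 osteoblasts (Bglap in 91.8%), 817 chondrocytes (Acan in 67.8%) and 655 perivascular cells (Rgs5 in 84.0%). Smaller groups were 269 muscle cells, 186 lymphatic endothelial cells, 112 immune cells, 108 Schwann cells and 64 erythroid cells, and 287 cells stayed unnamed. Of the chondrocytes, 504 lay in a cluster led by Cytl1 and Mfi2, and 313 in one led by Col9a3 and Col9a1. The name of the first is uncertain. At a lower clustering resolution only 314 cells were named chondrocytes. With the cell cycle genes kept in the clustering it was 312, and a cluster led by Cytl1 and Clu was named fibroblast. A cell was called G2/M-positive or S-positive when it had UMIs of at least 3 different members of that phase. Of 1179 G2/M-positive cells, 896 (76.0%) were fibroblasts, which made up 62.3% of all cells.

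By label, no cell cycle gene was past the threshold in fibroblasts. Birc5 (survivin, a subunit of the chromosomal passenger complex that guides chromosomes in mitosis) stood at 1.21, 66.3 and 18.3 UMIs per 1000000 UMIs of the summed fibroblasts (CPM) in the 3 rest libraries. It stood at 2.53, 99.2 and 4.19 in those labelled peak, at 9.90, 31.6 and 1.78 in those labelled resolving, and at 82.9, 46.7 and 2.51 in those labelled resolved. Each label thus held a library with low and a library with high values, and the labels overlapped. The log2 fold change of Birc5 against rest was 0.25 ± 1.51 (SE, n = 3 per label) at peak, -1.01 ± 1.55 in the resolving and 0.55 ± 1.51 in the resolved libraries. Tests were edgeR's quasi-likelihood test on UMI sums per library with Benjamini-Hochberg adjustment over all genes tested, and the threshold asked for both an adjusted p below 0.05 and a change of more than 0.5 on the log2 scale in either direction.

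The same held for the other 41 members. In each of the 9 comparisons with rest (3 labels, in fibroblasts, in all cells and in vascular endothelial cells) 0 members passed, and so did 0% of all 12180, 13307 and 6944 genes tested. At an unadjusted p under 0.05, edgeR had 1 S member at peak and 1 in the resolving libraries in fibroblasts (Cdc6 both times), and 1 in vascular endothelial cells at peak (Rrm1). DESeq2 also called 0 members in these 9 comparisons. The share of G2/M-positive fibroblasts was 6.39 ± 8.29% at rest, 7.81 ± 12.996% at peak, 2.09 ± 2.40% in the resolving and 8.90 ± 10.1% in the resolved libraries (SD, n = 3). The labels overlapped, and the differences between them were smaller than the SD of at least one of the labels compared.

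By run, the libraries fell into high and low ones. The share of G2/M-positive fibroblasts was 0, 0.374 and 1.35% in suffixes 1 to 3, 20.0, 15.8 and 22.8% in suffixes 4 to 6, 4.77, 6.61 and 3.41% in suffixes 7 to 9, and 0.241, 0.143 and 0.140% in suffixes 10 to 12. The 0 of 799 cells in the first library allows a share of up to 0.375% (3 counts). Suffixes 4 to 6 were highest, suffixes 7 to 9 intermediate, and the runs did not overlap except suffixes 1 to 3 with 10 to 12. After thinning each cell to 2000 UMIs the shares were 0 to 0.606%, 7.85 to 11.9%, 1.74 to 4.71% and 0.143 to 0.164%, in the same order of runs. Over each run the share was 0.529% of 2268 fibroblasts (95% Wilson interval 0.303 to 0.923%), 19.4% of 3351 (18.1 to 20.8%), 5.40% of 4220 (4.76 to 6.13%) and 0.188% of 2657, and these intervals cover counting error only. Tenocytes, in which few cells should divide, had 0.32% G2/M-positive cells at a median of 5102 UMIs. In suffixes 4 to 6 it was 0 of 229 tenocytes (up to 1.31%) at a median of 3091 UMIs, against 7320 in fibroblasts, and in suffixes 7 to 9 it was 5 of 302 (1.66%).

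**Figure D1:**
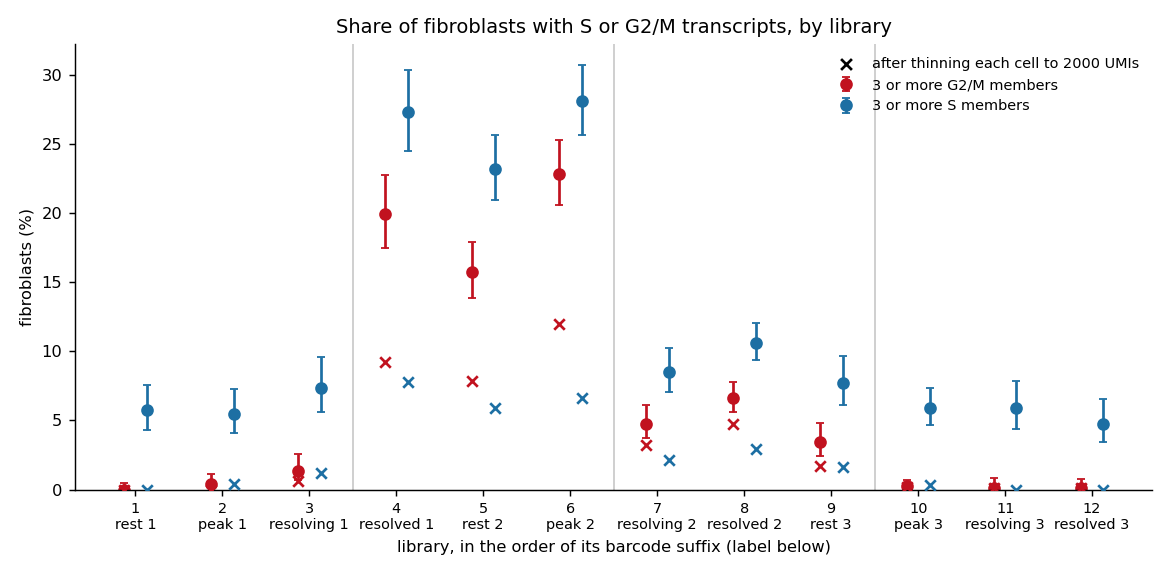
Share of fibroblasts (%) with UMIs of at least 3 different G2/M or S members in each library, in the order of the barcode suffix with the label below. Points are shares with 95% Wilson intervals and crosses are shares after thinning each cell to 2000 UMIs. Suffixes 4 to 6 lie between 15.8 and 22.8% for G2/M members, and suffixes 10 to 12 below 0.25%.

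The kinases of mitosis and their cyclins rose together in suffixes 4 to 6. Cdk1, the kinase that drives entry into mitosis, stood at 0.202, 0.633 and 7.18 CPM in suffixes 1 to 3, at 43.4, 36.7 and 64.4 in suffixes 4 to 6, at 22.4, 30.3 and 16.5 in suffixes 7 to 9, and at 2.03, 0.888 and 4.60 in suffixes 10 to 12. Its log2 fold change between suffixes 4 to 6 and 1 to 3 was 4.34 ± 0.57 (SE, adjusted p = 3.58e-05), or 20.3-fold, and the runs did not overlap. Its size rests on the low libraries, at 6.85 without the library labelled resolving 1 and 3.73 without rest 1. Its partner Ccnb1 (cyclin B1) moved less, by 2.58 ± 0.59 (adjusted p = 0.00271). Ccnb1 had 1.01, 1.05 and 9.40 CPM in suffixes 1 to 3 against 19.6, 17.0 and 25.4 in suffixes 4 to 6. Ccnb2 (cyclin B2) went from 0.405, 1.05 and 8.41 to 47.2, 39.9 and 59.2 CPM, and Ccna2 (cyclin A2) from 0.405, 0.422 and 6.43 to 26.5, 19.9 and 29.95. The library labelled resolving 1 was the highest of suffixes 1 to 3 for these 4 genes.

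Aurka, Aurkb and Plk1, kinases of the spindle and of chromosome separation, were higher too, at low counts. Aurkb had 1, 1 and 8 UMIs in suffixes 1 to 3 and 88, 104 and 195 in suffixes 4 to 6, and Plk1 had 2, 1 and 6 against 69, 80 and 148. At such counts the fitted fold changes depend on the prior count, so the UMIs are given.

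Genes of chromosome structure and of the kinetochore, the platform that ties chromosomes to the spindle, were higher as well. Birc5 had a mean of 4.55 ± 4.68 CPM in suffixes 1 to 3, 82.8 ± 16.4 in suffixes 4 to 6, 32.2 ± 14.2 in suffixes 7 to 9 and 2.82 ± 1.23 in suffixes 10 to 12 (SD, n = 3). Its log2 fold change was 4.31 ± 0.46 in suffixes 4 to 6 against 1 to 3. Cenpa, the histone variant that marks the centromere, stood at 2.23, 2.74 and 10.1 CPM in suffixes 1 to 3 and at 80.6, 64.3 and 90.7 in suffixes 4 to 6. Cenpa then stood at 31.8, 42.1 and 25.6 in suffixes 7 to 9 and at 6.34, 3.78 and 6.27 in suffixes 10 to 12, and its change of 4.08 ± 0.35 had the smallest adjusted p of the G2/M members (1.02e-06).

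Top2a, which untangles copied DNA, stood at 1.21, 0.211 and 9.40 CPM in suffixes 1 to 3, at 57.0, 29.7 and 76.1 in suffixes 4 to 6, at 14.3, 35.3 and 10.4 in suffixes 7 to 9, and at 3.17, 1.11 and 1.88 in suffixes 10 to 12. Mki67, the gene of the proliferation antigen Ki-67, stood at 1.42, 1.05 and 4.95, at 28.2, 17.1 and 48.3, at 8.48, 24.8 and 6.45, and at 2.03, 0.222 and 0.837 CPM in the same order. Their changes between suffixes 4 to 6 and 1 to 3 were 4.06 ± 0.67 (adjusted p = 0.000242) and 3.77 ± 0.65 (adjusted p = 0.000332). In suffixes 7 to 9 the library labelled resolved 2 was the highest for both. The spindle checkpoint kinase Bub1 had 0, 0 and 3 UMIs in suffixes 1 to 3 and 49, 44 and 92 in suffixes 4 to 6, and the motor Kif23, which works in the final separation of daughter cells, 0, 1 and 4 against 69, 62 and 109.

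The kinetochore motor Cenpe had 0.809, 1.05 and 3.71 CPM in suffixes 1 to 3 and 15.96, 9.34 and 26.5 in suffixes 4 to 6, and Cenpf, a further kinetochore protein, had 0.809, 0.633 and 6.19 against 18.6, 15.4 and 33.1. The checkpoint protein Bub1b had 0, 3 and 7 UMIs against 50, 47 and 70.

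Genes of mitotic exit followed the same order of runs. Ube2c, the ubiquitin-conjugating enzyme of the anaphase-promoting complex, stood at 0.809, 0.844 and 12.1 CPM in suffixes 1 to 3, at 55.8, 39.5 and 70.6 in suffixes 4 to 6, at 25.7, 34.2 and 19.8 in suffixes 7 to 9, and at 5.83, 1.55 and 6.48 in suffixes 10 to 12. Cdc20, which activates that complex, stood at 2.63, 2.32 and 13.4 CPM against 38.2, 30.4 and 36.2 in suffixes 4 to 6. Of the spindle genes, Nusap1 had the smallest change of all G2/M members (2.09 ± 0.46, adjusted p = 0.002), with 2.02, 1.69 and 6.19 CPM against 13.4, 9.86 and 16.1. Tpx2, which helps build spindle microtubules and activates Aurora A, rose by 3.36 ± 0.44, and Hmmr, a spindle protein and hyaluronan receptor, by 4.03 ± 0.76. Prc1, which bundles microtubules at the middle of the spindle, rose by 3.27 ± 0.59, and Tacc3 by 2.61 ± 0.31. The spindle motor Kif11 had 1, 1 and 5 UMIs against 50, 36 and 95. All 24 G2/M members were past the threshold and higher in suffixes 4 to 6 than in 1 to 3, in a comparison in which 18.5% of all genes were higher and 19.9% lower. In suffixes 1 to 3, Bub1 had 3 UMIs in all, Kif23 5, Kif11 7, Plk1 9 and Aurkb 10. Such members could enter the test through the runs where they are high. That favours higher values there, so for them the call is a description. All 24 were also higher in suffixes 7 to 9 (14.1% of all genes higher, 11.7% lower). None of them was past the threshold in suffixes 10 to 12, nor was any S member (0.944% of all genes either way), with edgeR giving 3 S and 0 G2/M members at an unadjusted p under 0.05 and DESeq2 calling 1.

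**Figure D2:**
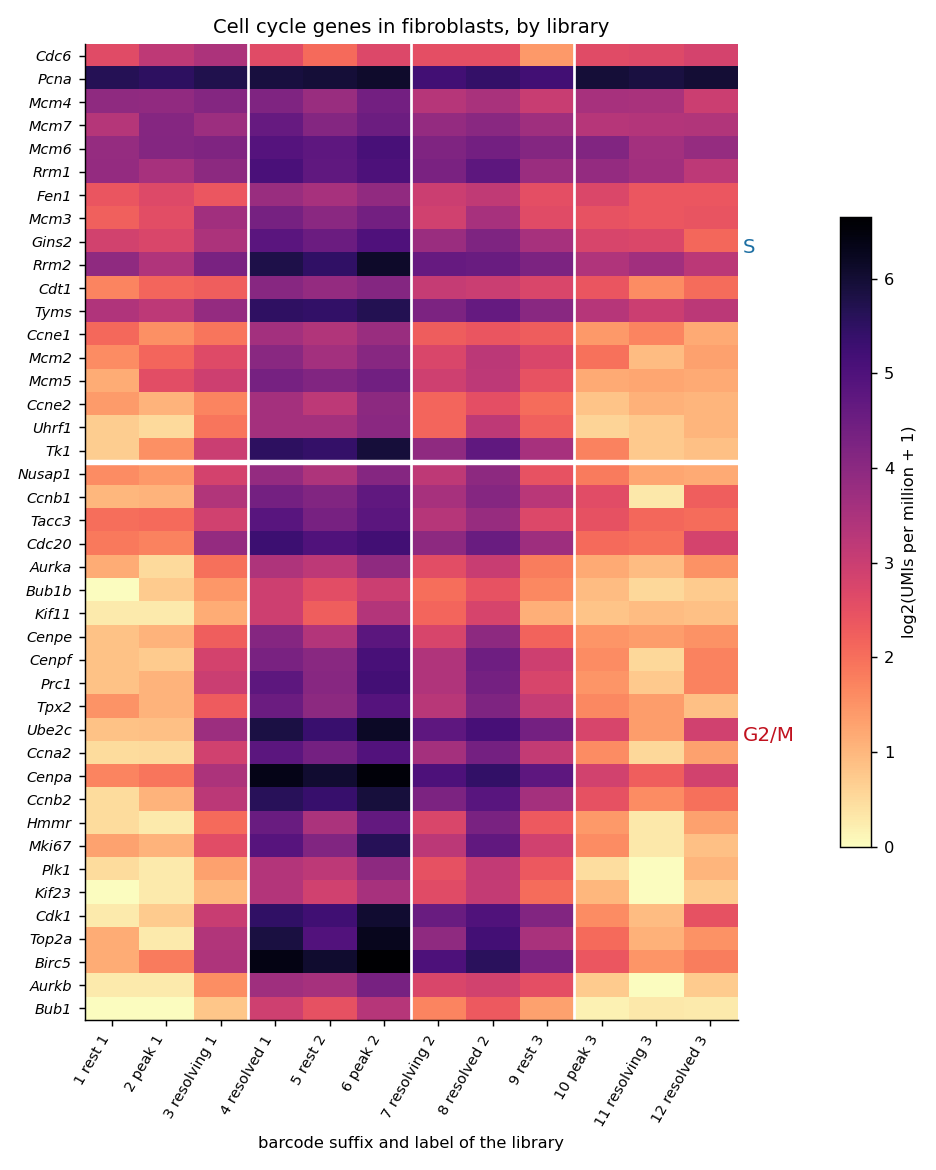
Level of each cell cycle gene in the summed fibroblasts of each library, as log2 of CPM plus 1, with genes in the rows (S members above, G2/M members below the white line) and libraries in the order of the barcode suffix. Each row is to be read across libraries, since levels of different genes are not comparable by length. Birc5 goes from 1.21 CPM in the first library to 99.2 in the sixth, while Pcna stays between 35.7 and 67.0.

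The S members did not move as a block. Tk1 (thymidine kinase 1) stood at 0.607, 1.90 and 6.93 CPM in suffixes 1 to 3, at 44.7, 41.8 and 59.8 in suffixes 4 to 6, at 14.3, 25.3 and 10.6 in suffixes 7 to 9, and at 2.28, 0.666 and 0.837 in suffixes 10 to 12. Its log2 fold change of 4.09 ± 0.47 in suffixes 4 to 6 (adjusted p = 1.24e-05, 17.0-fold) was the largest of the S members, followed by that of Uhrf1 (3.44 ± 0.47), which keeps DNA methylation in place on new strands. Rrm2, a subunit of the enzyme that makes deoxyribonucleotides, started from a higher level, with 14.2, 9.70 and 18.6 CPM in suffixes 1 to 3, 53.9, 43.5 and 68.7 in suffixes 4 to 6, 23.5, 22.4 and 18.02 in suffixes 7 to 9, and 9.64, 11.5 and 8.37 in suffixes 10 to 12. Tyms (thymidylate synthase) stood at 9.71, 8.23 and 13.4, at 43.6, 42.4 and 50.1, at 17.96, 23.9 and 15.4, and at 8.88, 6.89 and 8.37 CPM. Rrm2 changed by 2.03 ± 0.20 and Tyms by 2.19 ± 0.18 between suffixes 4 to 6 and 1 to 3 (adjusted p = 2.77e-06 and 6.85e-07). These nucleotide genes thus kept a clear level in the low libraries.

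The cyclins of S-phase entry were low everywhere and higher in suffixes 4 to 6. Ccne1 (cyclin E1) had 3.24, 1.90 and 2.72 CPM in suffixes 1 to 3 against 11.4, 9.55 and 12.8, and Ccne2 had 1.62, 1.05 and 2.23 against 11.1, 8.20 and 14.9. Cdt1, which loads the helicase with Cdc6, had 2.23, 3.37 and 3.71 CPM against 15.8, 13.6 and 16.4 (2.36 ± 0.25), unlike Cdc6 below. The helicase genes split. Mcm2 had 2.02, 3.37 and 5.20 CPM against 15.6, 11.4 and 15.9, while Mcm6 had 13.2, 16.5 and 17.3 against 28.7, 25.7 and 33.5. Mcm6 had 17.2, 20.1 and 16.2 in suffixes 7 to 9 and 16.9, 11.3 and 13.2 in suffixes 10 to 12, and changed by 0.96 ± 0.16 in suffixes 4 to 6. Of the others in this complex, Mcm5 changed by 2.25 ± 0.34, Gins2 by 1.93 ± 0.23, Mcm3 by 1.53 ± 0.32 and Mcm7 by 0.76 ± 0.19. Mcm4 was at 14.4, 14.1 and 16.3 CPM in suffixes 1 to 3 and 17.2, 12.8 and 20.1 in suffixes 4 to 6, with overlapping runs and a change of 0.21 ± 0.18 (adjusted p = 0.365). In suffixes 7 to 9, with 8.86, 10.4 and 7.11 CPM, Mcm4 was lower than in suffixes 1 to 3 (-0.71 ± 0.19, adjusted p = 0.0117).

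Pcna, the clamp that holds polymerases on DNA, was the S member with the most UMIs and the flattest profile. It stood at 49.4, 44.5 and 52.0 CPM in suffixes 1 to 3, at 58.2, 61.1 and 67.0 in suffixes 4 to 6, at 35.7, 41.3 and 35.9 in suffixes 7 to 9, and at 61.1, 57.1 and 62.7 in suffixes 10 to 12. The change in suffixes 4 to 6 (0.41 ± 0.09, adjusted p = 0.00274) stayed under the fold limit, and the run with almost no G2/M-positive cells had the same level as the run with most. Fen1, which trims the fragments of the lagging strand, changed by 1.49 ± 0.22, and Rrm1, the larger subunit of ribonucleotide reductase, by 1.25 ± 0.23. The licensing factor Cdc6 went the other way in its values, with 5.06, 8.02 and 10.1 CPM in suffixes 1 to 3 and 5.10, 3.22 and 5.48 in suffixes 4 to 6 (-0.69 ± 0.33, adjusted p = 0.103). Cdc6 was lower in suffixes 7 to 9, with 4.81, 4.83 and 1.65 CPM (-0.93 ± 0.34, adjusted p = 0.0475). In all, 15 of 18 S members were higher in suffixes 4 to 6 and 0 lower, and 8 were higher and 2 lower in suffixes 7 to 9. The median log2 fold change in suffixes 4 to 6 was 1.98 for the S members, 3.71 for the G2/M members and -0.01 for all genes, and in suffixes 7 to 9 it was 0.64 and 2.63 for the S and G2/M members. Without the library labelled resolved 2, 20 members instead of 32 were higher in suffixes 7 to 9, and 18 with cells thinned to 2000 UMIs. Cdc6 was no longer past the threshold there when any of 8 single libraries was left out. Every library of suffixes 4 to 6 was above every library of 1 to 3 for 24 G2/M and 16 S members, all but Cdc6 and Mcm4 (25.6% of all genes). In sums over cells, fewer dividing cells and less RNA per cell cannot be told apart.

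**Figure D3:**
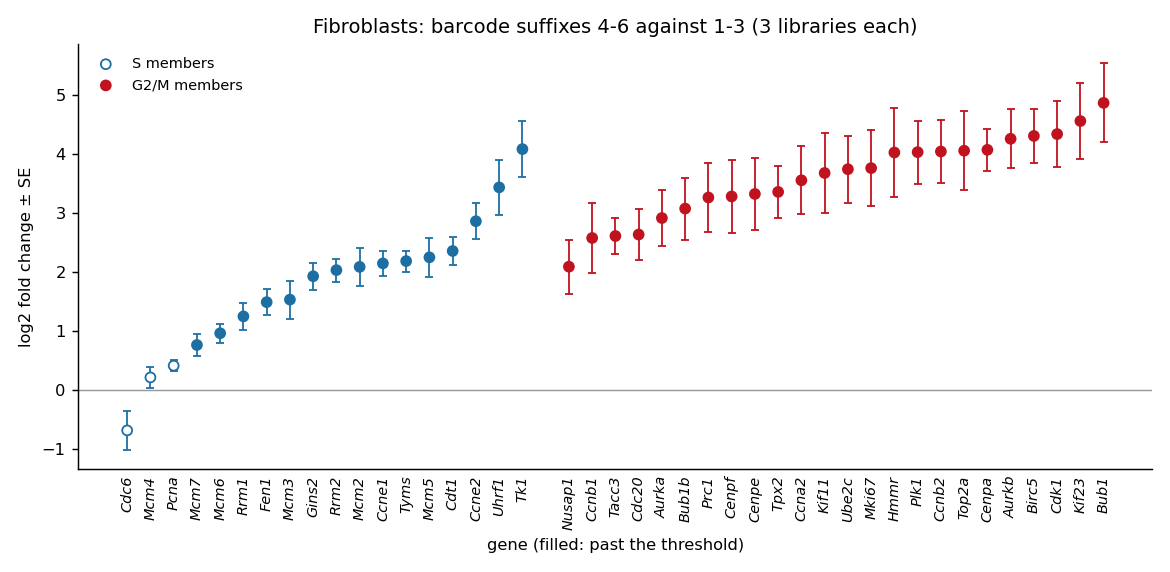
Log2 fold change of each cell cycle gene in fibroblasts between barcode suffixes 4 to 6 and 1 to 3, with its standard error (3 libraries each), in rising order within the S and the G2/M members. Filled points are past the threshold. Cdc6 lies at -0.69, Pcna at 0.41 and Tk1 at 4.09, and the highest points, among them Bub1, rest on few UMIs in suffixes 1 to 3.

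Other cell cycle genes moved with the members. In lists of 49 further S and 120 further G2/M genes, 34 of 46 and 90 of 113 tested were higher in suffixes 4 to 6 than in 1 to 3, and 0 and 1 lower, with medians of 1.21 and 2.47. In suffixes 7 to 9, 11 of 46 and 64 of 113 were higher, and 2 and 4 lower. Regulators of the cycle went both ways. Of 40 regulators tested, those higher in suffixes 4 to 6 included Mybl2 (B-MYB, 3.98 ± 0.53), Foxm1 (3.62 ± 0.57), the late E2F repressor E2f8 (4.403 ± 0.73), the CDK inhibitors Cdkn2a (2.68 ± 0.53) and Cdkn2b (2.55 ± 0.42), and Cdk4 (1.44 ± 0.09). Lower were Ccnd1 (cyclin D1, -1.48 ± 0.17), the inhibitor Cdkn1c (p57, -1.25 ± 0.27), the growth arrest gene Gas1 (-1.16 ± 0.17), Rbl2 (p130, -1.03 ± 0.21) and Cdkn1a (p21, -0.86 ± 0.14). The CDK inhibitors and the pocket proteins each went both ways, with Rbl1 (p107) higher (0.94 ± 0.37). In all, 13 of 40 regulators were higher and 9 lower, against 18.5% and 19.9% of all genes, so the share of lower ones was near that of all genes.

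S and G2/M members differed in how much transcript was left where few cells had G2/M transcripts. The mean level in the low libraries (suffixes 1 to 3 and 10 to 12) was a median of 7.83% of that in suffixes 4 to 6 for the 24 G2/M members and of 22.3% for the 18 S members. For S members this share ran from 4.52% to 144%, and it was 87.7% for Pcna, 72.8% for Mcm4, 53.0% for Mcm7 and 50.2% for Mcm6. Summed S members had 6.63, 6.79 and 1.52 UMIs per UMI of the summed G2/M members in suffixes 1 to 3, 0.658, 0.778 and 0.594 in suffixes 4 to 6, 0.766, 0.578 and 0.911 in suffixes 7 to 9, and 2.75, 5.54 and 2.60 in suffixes 10 to 12. The ratio was above 1 in all low libraries and below 1 in the other 6. S-positive fibroblasts were 6.13, 26.1, 9.41 and 5.57% of the 4 runs, and S-positive tenocytes were 5.80, 1.31, 5.96 and 6.25% at medians of 5129, 3091, 4287.5 and 5983.5 UMIs. The share in fibroblasts of suffixes 10 to 12 thus lay below that in tenocytes, and that of suffixes 1 to 3 near it. Thinned to 2000 UMIs, the S-positive shares were 0.487, 6.65, 2.44 and 0.154%.

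In single cells, G2/M members went together more than S members did. Over 12287 fibroblasts thinned to 2000 UMIs, the median correlation of log values was 0.197 for the 276 pairs of G2/M members, 0.046 for the 153 pairs of S members and 0.0428 for the 432 mixed pairs, as a description of cells that share libraries. The highest was 0.439, between Birc5 and Ube2c, followed by Birc5 with Cenpa (0.426) and Top2a with Ube2c (0.425). S-positive cells made up 5.34% of fibroblasts without a G2/M member, 17.3% of those with 1 or 2, 56.9% of those with 3 to 5 and 88.9% of those with 6 or more. Depth rose along this order, with medians of 5406, 8007, 10446 and 13232 UMIs, and its part in the shares was not tested. Of the G2/M-positive fibroblasts, 707 were S-positive too and 189 were not, and 850 fibroblasts were S-positive alone. The 896 G2/M-positive fibroblasts had a median of 12072.5 UMIs against 5517.5 in fibroblasts of neither kind, and 7.48% against 4.87% of them fell in the top 6% of doublet scores in their library.

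Fibroblasts that were neither G2/M- nor S-positive still held S transcripts, above all Pcna. The cells were chosen by these genes, so the values are a description. Of 10750 such cells, 19.0% had a Pcna UMI, against 5.40% for Mcm6, the next of the S members, and 2.15% for Cdk1, the highest of the G2/M members. Pcna had UMIs in 59.7% of G2/M-positive fibroblasts and in 61.2% of those that were S-positive alone, whereas Birc5 had UMIs in 80.7% and 3.76% of them.

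Most G2/M-positive fibroblasts lay in a single cluster, number 6, with the leading genes Gjb5, Il1rl1, Cxcl5, Col5a3 and Adam12. It held 512 of them (57.1%) but 11.04% of all fibroblasts. The cell cycle genes described here, the listed further genes and regulators, and genes correlated with the members were left out of the clustering. Genes under the limit on that correlation could stay in, so the clusters need not be independent of division. Cluster 6 itself was uneven over the runs, at 0.309, 25.5, 12.04 and 0.339% of fibroblasts. Within it, 44.2% of 855 cells were G2/M-positive in suffixes 4 to 6 and 25.6% of 508 in suffixes 7 to 9. Cluster 7, led by Cxcl5, Sfrp1, Chl1 and Saa3, held 153 G2/M-positive cells (15.2% of its 969 cells in suffixes 4 to 6 and 2.31% of 260 in suffixes 7 to 9). Lining fibroblasts, marked by Prg4 and Clic5, had 3.53% of 170, 27.0% of 345, 4.28% of 607 and 0.249% of 401 cells G2/M-positive in the 4 runs. Sublining fibroblasts, marked by Cd34 and Pi16, had 0.435, 5.07 and 1%, and 0 of 800 (up to 0.375%) in suffixes 10 to 12.

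Between the layers, Pcna (0.52 ± 0.12) and Rrm2 (0.97 ± 0.30, adjusted p = 0.0126) were higher in lining than in sublining fibroblasts, out of 6 S members and 0 G2/M members with enough counts (24.4% of all genes were past the threshold either way). The count was 0 without the library labelled resolving 1. In lining fibroblasts alone, 19 of 20 G2/M and 10 of 17 S members tested were higher in suffixes 4 to 6 than in 1 to 3 (10.7% of all genes higher), and 0 were past the threshold in suffixes 7 to 9 (15.2% either way), where edgeR had 1 member at an unadjusted p under 0.05. Without the library labelled resolving 1, 8 members were past the threshold there. In sublining fibroblasts 1 of 5 G2/M and 2 of 10 S members tested were higher in suffixes 4 to 6 (1.09% of all genes higher). The summed G2/M members of lining fibroblasts had 297, 2635, 692 and 76 UMIs in the 4 runs. In both layers, members with few counts outside suffixes 4 to 6 could enter the test through that run. That favours higher values there, so these counts are a description.

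Other joint cells differed from fibroblasts in which phase they showed. Over all libraries the share of G2/M-positive cells was 59.4% in erythroid, 28.6% in immune, 7.53% in lymphatic endothelial, 7.17% in fibroblast, 6.56% in perivascular, 5.39% in chondrocyte, 4.07% in vascular endothelial, 1.90% in osteoblast, 1.86% in muscle and 0.32% in tenocyte clusters, and 0 of 108 Schwann cells were positive (up to 2.78%). The runs make up unequal parts of each cell type, so these shares give no order of the types. In suffixes 4 to 6 alone, the share was 19.4% in fibroblasts, 16.6% in vascular endothelial cells and 16.3% of 49 lymphatic endothelial cells. It was 12.8% in perivascular cells, 3.51% in chondrocytes and 0 of 229 in tenocytes, and 71.9% of 32 erythroid and 40% of 55 immune cells. Median depth was 7320 UMIs in fibroblasts, 4014 in vascular and 4068 in lymphatic endothelial cells. Thinned to 2000 UMIs, their shares were 9.71, 9.40 and 12.2%. The order of fibroblasts and endothelial cells thus changed with depth. The sort took cells without CD45, and few immune cells were left in. Erythroid cells were few too. Only 2 libraries had at least 10 erythroid cells and 3 had at least 10 immune cells. In a fit with the library as a block (10213 genes), 20 G2/M and 17 S members were higher in erythroid cells than in fibroblasts (5.38% of all genes higher), with Nusap1 at 4.69 ± 0.68 and Rrm2 at 4.61 ± 0.45. Without the library labelled resolved 1, which leaves 1 erythroid library that is assumed to vary like the others, the count of 37 was 17. In immune cells 6 G2/M and 12 S members were higher (10.7% of all genes), led by Mcm5 (3.51 ± 0.52).

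Vascular endothelial cells were above fibroblasts mainly in S members. Of these, 11 were higher than in fibroblasts, with 2 G2/M members (Kif23 1.68 ± 0.38 and Aurka 0.79 ± 0.34), in a comparison in which 27.5% of all genes were higher. The summed S members were above those of the fibroblasts in 12 of 12 libraries, and the summed G2/M members in 9 of 12. For the S sums this was also so in 10 of 10 lymphatic endothelial, 8 of 8 muscle, 3 of 3 immune, 3 of 3 Schwann and 2 of 2 erythroid libraries. It was so in 10 of 12 perivascular, 8 of 12 osteoblast, 6 of 12 tenocyte and 5 of 12 chondrocyte libraries. The helicase gene Mcm3 (1.65 ± 0.21), Cdc6 (1.41 ± 0.23), Mcm2 (1.38 ± 0.26), Mcm5 (1.27 ± 0.28) and Tyms (1.26 ± 0.17) led, and Pcna followed with 0.87 ± 0.12. Pcna in vascular endothelial cells had 117, 108 and 85.3 CPM in suffixes 1 to 3, 143, 147 and 122 in suffixes 4 to 6, 100, 72.7 and 94.1 in suffixes 7 to 9, and 93.3, 113 and 115 in suffixes 10 to 12. Each of these lay above the fibroblast value of the same library.

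Tenocytes, the tendon cells, were at the low end. In tenocytes 12 G2/M and 3 S members were lower than in fibroblasts (10.3% of all genes lower), among them Cenpe (-3.15 ± 0.81), Ccnb2 (-2.84 ± 0.70), Birc5 (-2.66 ± 0.63) and Cdk1 (-2.56 ± 0.70), and the summed G2/M members were above those of fibroblasts in 0 of 12 libraries. Without the library labelled rest 2, the count was 9, and with cells thinned to 2000 UMIs it was 7. Birc5 had 0 UMIs in 7 tenocyte libraries and at most 12, while Pcna kept 33.0 to 63.1 CPM in tenocytes. Osteoblasts had more Ccne1 (1.54 ± 0.26) and less Cdc6 (-1.13 ± 0.33) than fibroblasts, and their other 40 members were not past the threshold (12.5% of all genes higher, 15% lower). Perivascular cells had more Rrm1 (1.22 ± 0.20), Cdc20 (1.03 ± 0.43) and Mcm4 (1.004 ± 0.24), with 17.6% of all genes higher. Lymphatic endothelial cells had more Mcm3 and Tyms (12.7% higher), muscle cells more Pcna (11.4% higher), and Schwann cells had 0 members past the threshold by edgeR, at an unadjusted p under 0.05 and by DESeq2 (14.2% of all genes either way).

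Cells in the clusters named chondrocyte, after the cells of cartilage, held most G2/M transcripts in suffixes 1 to 3, where fibroblasts had few. These cells held almost none in suffixes 10 to 12, where fibroblasts had fewest. Over all libraries 18 G2/M and 3 S members were higher than in fibroblasts (15.1% of all genes higher, 21.6% lower), with Tpx2 at 1.61 ± 0.37 and Ube2c at 1.61 ± 0.44 (1.02 and 0.90 without the library labelled peak 1), and Cdc6 was lower (-1.62 ± 0.41). The count of higher members rests on single libraries: it was 3 without the library labelled peak 1 and 10 without resolving 1, 8 with DESeq2, 4 in a fit without the library block and 3 with cells thinned to 2000 UMIs. By library, Cdk1 in chondrocytes had 16, 121 and 77 UMIs in suffixes 1 to 3, 0, 21 and 0 in suffixes 4 to 6, 25, 1 and 4 in suffixes 7 to 9, and 1, 0 and 0 in suffixes 10 to 12. Top2a had 18, 76 and 87, then 4, 13 and 0, then 20, 2 and 2, and then 2, 0 and 0 UMIs. Both had their most UMIs in suffixes 1 to 3, where 2268 fibroblasts had 33 UMIs of Cdk1 and 45 of Top2a in all against the 279 chondrocytes.

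Within chondrocytes the run with suffixes 1 to 3 stood highest. The share of G2/M-positive chondrocytes was 10.0% of 279 cells there, 3.51% of 171 in suffixes 4 to 6, 5.62% of 178 in suffixes 7 to 9 and 0 of 189 in suffixes 10 to 12 (up to 1.59%). Thinned to 2000 UMIs the first 3 shares were 6.47, 2.92 and 3.37%. Depth moved with the run, at medians of 12612, 5108, 6372 and 7192 UMIs, and the library labelled peak 1, with 11 positive cells among 62 (17.7%), had a median of 17126.5 UMIs. Peak libraries kept cells of up to 40000 UMIs, against 20000 in those labelled rest. A cluster led by Col2a1 and Col9a1, collagens of cartilage, held 191 of the 279 chondrocytes in suffixes 1 to 3 but 45 of 171 in suffixes 4 to 6, and 14.7% and 6.67% of these cells were G2/M-positive. Its summed G2/M members stood at 820 and 760 CPM in these 2 runs. In the other chondrocyte cluster they were higher in suffixes 4 to 6, at 15.8 and 158 CPM, with 0 of 88 and 3 of 126 cells positive. The name of that cluster is uncertain, as given above. In suffixes 10 to 12 against 1 to 3, 10 of 10 G2/M and 2 of 4 S members tested were lower (13.9% of all genes lower). Members enter this test by their counts, and those of Birc5 and Cdk1 lay mostly in suffixes 1 to 3. That favours lower values in suffixes 10 to 12, so the count is a description. Birc5 had 21, 108 and 48 UMIs against 0, 0 and 0, and Top2a changed by -5.06 ± 1.11 (adjusted p = 0.00434). Without each library in turn, 6 to 20 members were lower. In suffixes 4 to 6 against 1 to 3 edgeR had 0 of 14 members past the threshold and 3 at an unadjusted p under 0.05 (6.08% of all genes either way).

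The change between runs differed between chondrocytes and fibroblasts. The difference of the 2 changes (chondrocytes minus fibroblasts, an interaction term in the same edgeR test, 9631 genes) was below 0 and past the threshold for 17 of 17 G2/M and 10 of 14 S members in suffixes 4 to 6 against 1 to 3 (8.59% of all genes lower). Cdk1 differed by -5.93 ± 0.89 (adjusted p = 0.00017), Top2a by -5.54 ± 0.83 and Tk1 by -4.92 ± 0.80. Without the library labelled rest 2, chondrocytes of suffixes 4 to 6 had no Cdk1 UMI left, and the fitted value for Cdk1 was -15.53. For suffixes 7 to 9 it was 16 of 17 G2/M and 2 of 14 S members (5.44% of all genes lower), with 10 members in all without the library labelled peak 1 or resolved 2. For suffixes 10 to 12 it was 11 and 1 (6.06% lower), with 0 members without the library labelled peak 3, so that count rests on this library. The part of depth and of the mix of chondrocyte clusters in these differences was not tested.

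Vascular endothelial cells moved with the fibroblasts. Top2a had 6.86, 3.73 and 2.13 CPM in suffixes 1 to 3, 116, 77.9 and 76.1 in suffixes 4 to 6, 35.0, 55.0 and 31.4 in suffixes 7 to 9, and 9.01, 0 and 7.49 in suffixes 10 to 12. All 16 G2/M and 9 of 13 S members tested were higher in suffixes 4 to 6 (10.6% of all genes higher), with Top2a at 4.29 ± 0.48 and Birc5 at 4.35 ± 0.55, while Pcna stayed at 0.43 ± 0.18 (adjusted p = 0.0975). Members with few counts outside suffixes 4 to 6 could enter the test through that run, which favours higher values there. In suffixes 7 to 9, 9 G2/M and 2 S members were higher (5.05% of all genes), or 6 in all without the library labelled peak 1. The difference to the change in fibroblasts passed for 1 member in suffixes 4 to 6, Cenpa (-2.19 ± 0.55, 7.91% of all genes either way), and not without the library labelled rest 1 (-1.12, adjusted p = 0.327). Within the vessels, endothelium with the leading genes Selp and Plvap had 2.59, 24.5, 7.73 and 0.820% G2/M-positive cells in the 4 runs. A second endothelial cluster had 0.369, 0.990 and 1.92%, and 0 of 663 (up to 0.452%) in suffixes 10 to 12.

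Bone cells followed less. Cenpa in osteoblasts had 10.8, 4.24 and 6.01 CPM in suffixes 1 to 3, 21.5, 14.4 and 30.7 in suffixes 4 to 6, 59.7, 88.9 and 9.81 in suffixes 7 to 9, and 8.17, 4.82 and 9.63 in suffixes 10 to 12. It was the only member past the threshold in osteoblasts in any run, in suffixes 7 to 9 (3.00 ± 0.44, adjusted p = 0.00737, 0.0307% of all genes higher), where leaving out single libraries gave 0 to 6 members. In suffixes 4 to 6, 0 of 5 G2/M and 0 of 8 S members tested passed by edgeR and 1 had an unadjusted p under 0.05 (0.907% of all genes either way). The change in suffixes 4 to 6 was smaller than in fibroblasts for 5 of 13 G2/M and 2 of 17 S members (5.09% of all genes lower), among them Ccna2 (-5.05 ± 1.25), Birc5 (-4.18 ± 0.98), Ccnb2 (-3.75 ± 1.16), Mki67 (-3.11 ± 0.91) and Cenpa (-2.61 ± 0.62). Without the library labelled rest 1, 1 member was past the threshold, with Ccnb2 at -1.92. Without rest 2, Ccna2 was at -10.98 and Birc5 at -7.06, and without resolving 1 Ccnb2 was at -5.89. G2/M-positive osteoblasts were 1.07, 2.65 and 5.32% of the first 3 runs and 0 of 351 (up to 0.855%) in suffixes 10 to 12.

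Perivascular cells, the pericytes and muscle cells of vessel walls, held Tk1 in few libraries, with 0, 0 and 0 UMIs in suffixes 1 to 3, 25, 26 and 16 in suffixes 4 to 6, 8, 43 and 0 in suffixes 7 to 9, and 0, 0 and 0 in suffixes 10 to 12. Their G2/M-positive share was 0 of 113 (up to 2.65%), 12.8%, 8.55% and 0 of 129 (up to 2.33%). Of 2 G2/M and 3 S members with enough counts, Cenpa (2.14 ± 0.64, adjusted p = 0.0241) and Tk1 were higher in suffixes 4 to 6 (11.1% of all genes higher), and leaving out single libraries gave 1 to 8 members. Tk1 entered the test through suffixes 4 to 9 alone, so its direction against the 0 UMIs of suffixes 1 to 3 was fixed. In tenocytes no G2/M member had enough counts for the test, and edgeR called 0 of 4 S members in suffixes 4 to 6, none of them at an unadjusted p under 0.05 (3.17% of all genes either way).

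**Figure D4:**
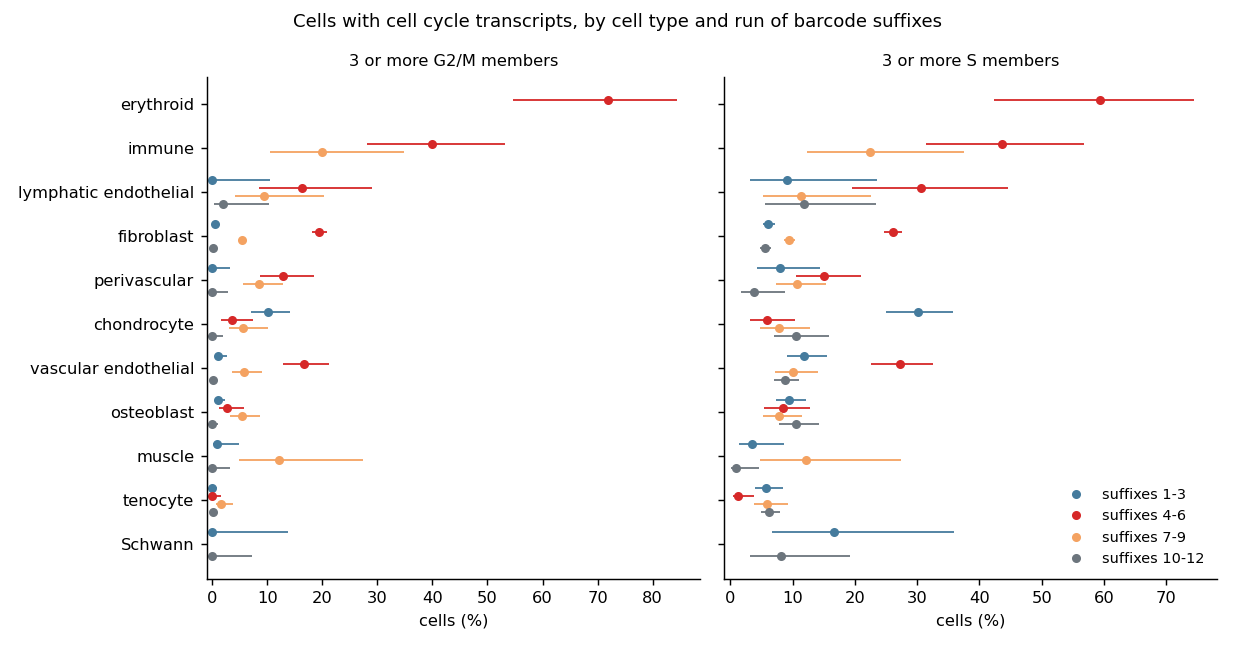
Share of cells (%) with UMIs of at least 3 different G2/M members by cell type and run of barcode suffixes, with 95% Wilson intervals (counting error only), for groups of at least 20 cells. Fibroblasts reach 19.4% and vascular endothelial cells 16.6% in suffixes 4 to 6, while chondrocytes have 10.0% in suffixes 1 to 3.

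G2/M-positive fibroblasts were also compared with other fibroblasts in genes that had not been used to choose them. In the 6 libraries with at least 10 such cells (suffixes 4 to 9), 879 G2/M-positive and 6692 other fibroblasts were summed per library and compared with the library as a block, without the cell cycle genes themselves. Of 10723 genes, 12% were higher and 15.6% lower in the G2/M-positive cells (1284 and 1670 genes), whose depth was higher, and with all cells thinned to 2000 UMIs it was 578 and 793. Of the further cell cycle genes, 47 of 47 S genes tested (median 2.21) and 107 of 110 G2/M genes tested (median 4.02) were higher and 0 and 1 lower, with a median of -0.03 over all genes. After thinning, 97 instead of 154 of these S and G2/M genes were higher. They belong to the same programme of division as the members by which the cells were chosen. Their direction thus follows largely from the choice, and these counts are a description. Pbk, a mitotic kinase, had 120 ± 25.7 CPM against 0.748 ± 0.573 (SD over 6 libraries), and changed by 7.18 ± 0.19. The largest changes also included Dlgap5 (7.30 ± 0.36), Casc5, Depdc1a, Hist1h1b, Nuf2, Kif4, Cdca5, Fam64a and Kif2c, all from the further G2/M list and higher in 6 of 6 libraries.

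Regulators of the cycle moved both ways. Of 39 tested, 19 were higher and 7 lower, against 12% and 15.6% of all genes, so the share of lower ones was near that of all genes. Regulators such as Mybl2, Foxm1 and Cdc25c act in the same programme of division as the members by which the cells were chosen. Their direction follows in part from the choice, so the counts of regulators are a description too. Mybl2, a partner of the MuvB complex on G2/M promoters, had 21.2 ± 5.98 CPM in G2/M-positive cells against 0.609 ± 0.351 in other fibroblasts (5.01 ± 0.28), and Foxm1 had 23.0 ± 14.0 against 0.907 ± 0.405 (4.37 ± 0.33). Cdc25c, the phosphatase that activates CDK1, had 26.6 ± 8.72 against 0.400 ± 0.285 CPM (5.93 ± 0.28), and Pkmyt1, a kinase that inhibits CDK1, had 33.1 ± 6.00 against 3.22 ± 0.732 (3.24 ± 0.16). The late repressor E2f8 changed by 4.30 ± 0.38. Smaller rises were seen in Cdk2 (28.7 ± 5.51 against 10.8 ± 0.973 CPM) and Cdk4 (348 ± 37.9 against 209 ± 18.7 CPM), and in the CDK inhibitors Cdkn2c (1.43 ± 0.09) and Cdkn2d (1.57 ± 0.13).

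Cdkn1c, the gene of the CDK inhibitor p57, fell most, with 25.0 ± 10.1 against 160 ± 104 CPM (-2.50 ± 0.14). Btg2, an antiproliferative gene, had 190 ± 32.0 against 402 ± 63.3 CPM (-1.17 ± 0.07). Btg1 (-0.82 ± 0.08), Gas1 (-0.79 ± 0.11) and Cdkn1a (-0.51 ± 0.08) were lower too. Also lower were 2 genes that promote the early cycle, Myc (71.8 ± 13.4 against 130 ± 29.9 CPM, -0.99 ± 0.08) and the D-type cyclin Ccnd2 (71.9 ± 11.8 against 123 ± 10.6 CPM, -0.84 ± 0.08), while Ccnd1 stood at 0.39 ± 0.18 (adjusted p = 0.0772). Each of the 7 lower regulators was lower in 6 of 6 libraries.

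**Figure D5:**
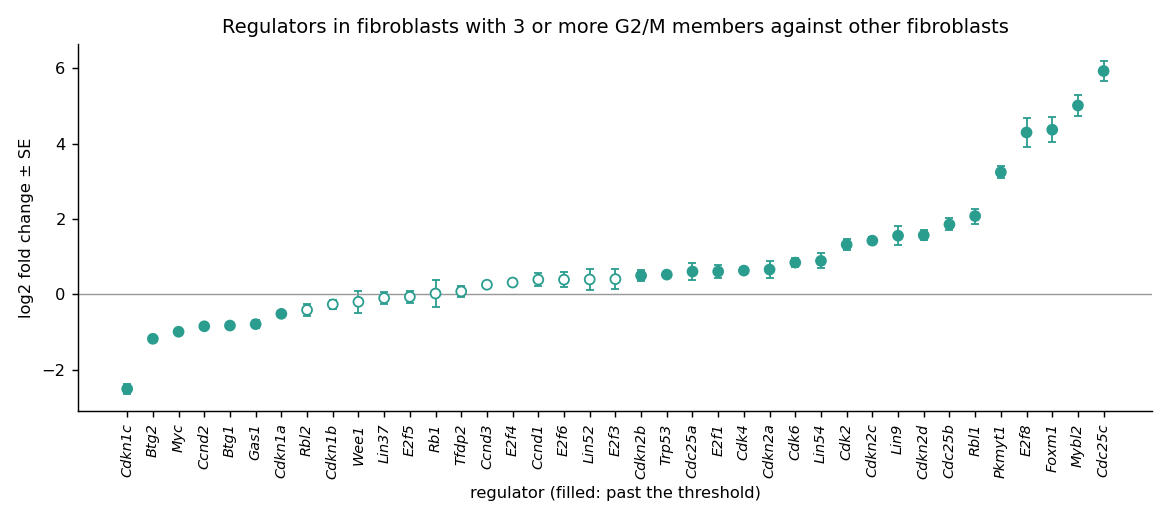
Log2 fold change of the 39 cell cycle regulators tested between G2/M-positive and other fibroblasts (edgeR, 6 libraries, library as a block), with standard errors. Filled points are past the threshold. Cdc25c lies at 5.93 and Mybl2 at 5.01, and Cdkn1c at -2.50.

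Among all other genes the largest falls were those of Inmt (1.14 ± 1.02 against 48.6 ± 21.4 CPM, -5.41 ± 0.20), Nppc, Aldh3a1, Gldn, Chil1, Snhg11, Cilp2, Angptl7 (11.1 ± 4.87 against 134 ± 50.2 CPM, -3.46 ± 0.11), Egfl6 and Serpina3c. Cluster makeup moved with this comparison, since cluster 6 held 57.1% of G2/M-positive fibroblasts and 6.22% of those that were neither G2/M- nor S-positive, and Inmt, Nppc and Egfl6 are among the leading genes of other fibroblast clusters and Angptl7 and Cilp2 of the tenocyte cluster. The part of these in the falls was not tested. Depth per cell moved with it too, as given above. Within cluster 6 alone (a comparison chosen once the data had been seen), 581 of 7506 genes tested were higher and 553 lower. There 33 of 33 further S and 79 of 85 further G2/M genes were higher, Mybl2 (5.43 ± 0.43), Cdc25c (4.29 ± 0.35) and Pkmyt1 (3.60 ± 0.28) were higher, Ccnd1 passed (0.81 ± 0.27), and Cdkn1c was lower (-1.47 ± 0.22). Myc (-0.30 ± 0.10) and Ccnd2 (-0.48 ± 0.11) stayed under the fold limit within the cluster. Of the 10 genes with the largest falls, only Angptl7 had enough counts there, at -1.11 ± 0.39.

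Hk2, which encodes hexokinase 2, the first enzyme of glycolysis and the gene the study was about, had 105 ± 40.2 CPM in G2/M-positive and 165 ± 50.9 in other fibroblasts. The difference was -0.77 ± 0.09 on the log2 scale (edgeR, adjusted p = 3.19e-06), lower in 6 of 6 libraries, and -0.64 ± 0.10 within cluster 6. These values are shares of all UMIs. G2/M-positive fibroblasts had a median of 12072.5 UMIs per cell, against 5517.5 in fibroblasts of neither kind. A lower share therefore need not mean fewer Hk2 UMIs per cell, and whether those differed was not tested.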

How the data were processed

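The authors sequenced 12 libraries of sorted joint cells and, per the labels, made gene by cell tables with Cell Ranger on mm10. The deposited values are whole-number UMI counts with no normalization declared. The members and lists were chosen with earlier results of these data known. Cells with 500 to 5000 genes, at least 500 UMIs and at most 20000 to 40000 UMIs, depending on the library, were kept. They were clustered (scanpy 1.11.5, Leiden, 2000 variable genes, 30 components, 20 neighbours, resolution 1) and named from markers. Left out of the clustering were the cell cycle genes, the listed further genes and regulators, and 129 genes correlated with the members (r over 0.15). Genes under that limit could stay in. Doublets were not removed in the main analysis and leaving out the 6% of cells with the highest scores was an alternative. Counts were summed per library and cell type (at least 10 cells) and tested with edgeR 4.0.16 (TMM, filterByExpr, R 4.3.3) and, as an alternative, DESeq2 1.42.0, after a check on simulated data. In small cell groups, and for members with few counts in fibroblasts, this filter on low counts admits members through the run where they are high. This favours calls in that direction. Values in every library are given for the 4 G2/M and 4 S members with the most UMIs and for Mki67. Of each comparison up to 5 members with the largest changes each way, all regulators, Hk2 and the 10 largest other changes may be named. Further members are named with values so that each is accounted for. Comparisons of runs in cells other than fibroblasts were added after seeing the data, as were the interaction terms. Total UMIs per library were 7.47e+06 to 1.66e+07. Replicate numbers did not pair the libraries, so no block on them was used.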

Additional observations from a re-analysis of the deposited data

Results flagged for a closer look

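The change of the cell cycle genes between runs of barcode suffixes differed between cell types by a test of the difference itself (an interaction term, edgeR). In chondrocytes the change was more negative than in fibroblasts for 27 members in suffixes 4 to 6 against 1 to 3, for 18 in suffixes 7 to 9 and for 12 in suffixes 10 to 12. In osteoblasts it was more negative for 7 members in suffixes 4 to 6. Leaving out each library in turn gave 21 to 30, 10 to 20, 0 to 18 and 1 to 14 members, with 0 of the 12 without the library labelled peak 3 and 1 of the 7 without rest 1. These comparisons rest on runs recognised in the same data and on 3 libraries each, and chondrocytes in suffixes 1 to 3 had a median of 12612 UMIs against 5481 in fibroblasts. The part of depth and that of the mix of chondrocyte clusters were not tested.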

How the results depend on the processing

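Replicate numbers did not pair the libraries. Correlations of same-numbered libraries' deviations from their label means ran from -0.585 to 0.697 in fibroblasts, from -0.432 to 0.656 in all cells and from -0.289 to 0.430 in vascular endothelial cells (9 each). With the replicate number as a block, or with the run as a block, 0 members passed in each of the 9 comparisons with rest. Without the filter on low counts, 3 members passed in vascular endothelial cells between resolving and rest.

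Against fibroblasts, the count of members higher in chondrocytes (21) was 4 without the library block, 8 with DESeq2 and 3 after thinning, and that of lower ones (1) was 2 without the block, without likely doublets or without upper limits, and 0 after thinning. Lymphatic endothelial cells (2) had 4 with RLE and 6 with DESeq2. Muscle (1) had 0 without the filter, 5 with DESeq2 and 2 without doublets or after thinning. Osteoblasts (2) had 4 with RLE, without doublets or at a clustering resolution of 0.5, 5 after thinning, and 29 when the cell cycle genes were kept in the clustering. Lower members in tenocytes (15) were 28 without the block, 7 after thinning, 29 at resolution 0.5, 27 with the cell cycle genes kept and 24 without upper limits, and 1 was higher with the genes kept. In vascular endothelial cells 1 was lower without the filter, at resolution 0.5, with the genes kept or without upper limits. Between lining and sublining 0 passed after thinning.

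Between runs in fibroblasts, 1 member was lower in suffixes 4 to 6 with the stage label as a term and after thinning, 18 instead of 32 were higher in suffixes 7 to 9 after thinning, and 1 passed in suffixes 10 to 12 with DESeq2 or after thinning. The differences of osteoblasts and of vascular endothelial cells from fibroblasts in suffixes 7 to 9 (1 member each, Ccne2 and Kif23) were 0 with DESeq2. Between G2/M-positive and other fibroblasts, thinning gave 97 instead of 154 further cell cycle genes higher, 578 instead of 1284 genes higher and 793 instead of 1670 lower, and within cluster 6 there were 581 and 553.

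The share of S-positive fibroblasts was 19.3, 39.2, 19.5 and 19.8% over the 4 runs with at least 2 members, 0.838, 15.1, 4.62 and 0.602% with at least 5, and 0.487, 6.65, 2.44 and 0.154% after thinning. For G2/M members it was 25.0, 8.01 and 0.640% in suffixes 4 to 6, 7 to 9 and 10 to 12 with at least 2, and 14.6% in suffixes 4 to 6 with at least 5. Thinning gave 9.71% in suffixes 4 to 6 and 3.66% in suffixes 7 to 9, and lifting the upper limits gave 0.263% in suffixes 10 to 12. Suffixes 4 to 6 were highest under each of these.

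Leaving out each library in turn moved the counts against fibroblasts to 3 to 26 higher and 1 to 4 lower in chondrocytes, 17 to 38 in erythroid cells, 0 to 3 in muscle, 2 to 6 in osteoblasts (6 without resolved 2), 0 to 1 higher and 9 to 20 lower in tenocytes, 0 to 1 lower in vascular endothelial cells, and 0 to 3 between lining and sublining. Between runs it gave, in fibroblasts, 0 to 1 lower in suffixes 4 to 6, 20 to 34 higher and 1 to 2 lower in suffixes 7 to 9, and 0 to 1 in suffixes 10 to 12. In suffixes 7 to 9 it gave 6 to 11 in vascular endothelial cells (7 without resolving 1), 0 to 6 in osteoblasts, 0 to 7 in perivascular cells, 0 to 1 in tenocytes, 0 to 6 in chondrocytes and 0 to 8 in lining fibroblasts. In suffixes 4 to 6 it gave 1 to 8 in perivascular cells and 0 to 3 in chondrocytes (3 without rest 1), and in suffixes 10 to 12 it gave 6 to 20 in chondrocytes and 0 to 8 in lining fibroblasts. The difference to fibroblasts ranged over 10 to 20 and 0 to 18 members for chondrocytes in suffixes 7 to 9 and 10 to 12, 1 to 14 and 0 to 1 for osteoblasts in suffixes 4 to 6 and 7 to 9, and 0 to 2 and 0 to 1 for vascular endothelial cells. Of the values of single genes, 1667 kept their direction and side of the threshold, 143 (45 results) were no longer past it and 0 reversed. The causes were not tested. Members with few UMIs per library limit what the comparisons in small cell groups can show.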
